A study of Drosophila melanogaster with 6 samples.

Results

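Glutathione transferases join the tripeptide glutathione to reactive compounds, which are then easier to export or break down. The epsilon class belongs to insects and is known for the detoxification of insecticides and of products of lipid oxidation. In Drosophila melanogaster many of its genes stand in a tandem array. The 10 genes described here are GstE1, GstE2, GstE3, GstE5, GstE6, GstE7, GstE8, GstE9, GstE11 and GstE12, taken by symbol from a table of 23882 features. Of these 10 genes, 9 had enough counts to be tested, among 11293 features tested in all, and GstE1 did not pass.

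The S2 line derives from Drosophila embryos and takes up double-stranded RNA (dsRNA) from its medium, which leads to loss of the matching transcript. Hlc, a DEAD-box RNA helicase, was targeted with dsRNA 2 in 2 libraries and with dsRNA 3 in 2 libraries. The control group of 2 libraries received dsRNA against beta-gal, the bacterial beta-galactosidase, so all 3 groups were treated with dsRNA. RNA was taken at day 3, and the design text calls the libraries biological replicates. The series title names the question as the role of Hlc in basal transcription of stress-responsive genes.

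Library totals ran from 56195472 to 84283999 counts. Levels are given as CPM, counts per 1000000 of a library size adjusted with TMM factors (trimmed mean of M-values), which were 1.13 to 1.16 with Hlc dsRNA and 0.751 to 0.778 in the controls. Hlc stood at 18.8 ± 1.80 CPM in the Hlc dsRNA libraries (SD, n = 4) and at 316 ± 1.15 CPM in the controls (SD, n = 2). The labels call S2 embryonic stem cells, whereas genes of plasmatocytes, the macrophage-like blood cells of the fly, were present. Of 8 tested plasmatocyte markers 4 were higher with Hlc dsRNA, 2 lower and 2 not called, beside 32.2% of all tested features higher and 32.6% lower. The 9 listed markers summed to 9059 to 10220 CPM with Hlc dsRNA and 5171 to 5497 CPM in the controls, led by the collagen genes Col4a1 (5060 and 2658 CPM) and vkg (4237 and 2246 CPM). The phagocytic receptor gene eater was at 78.3 and 43.0 CPM and the GATA factor gene srp at 249 and 371 CPM (means with Hlc dsRNA and in the controls). Hml was at 0.448 and 0.697 CPM, and NimC1 was too low to test. Scaled by library size alone in place of TMM, srp was not called (edgeR, adjusted p 0.98). The largest changes in the list were those of He, at 1.32 CPM with Hlc dsRNA and 11.5 CPM in the controls (log2 fold change -3.15), and Pxn, at 13.4 and 1.80 CPM (2.91). Crystal cell and lamellocyte markers summed to 14.5 to 16.9 CPM with Hlc dsRNA and 67.8 to 68.9 CPM in the controls, of which PPO3 supplied 15.1 and 67.8 CPM, with PPO2 at 0 in every library. Ovarian somatic, neuronal and fat body markers summed to 25.5 to 28.8 CPM with Hlc dsRNA and 11.5 to 11.7 CPM in the controls, mostly piwi (14.9 and 3.16 CPM) and elav (12.0 and 8.30 CPM), with tj at 0 in every library and Fbp1 not called. The part of these markers in the results was not tested.

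The array lies on chromosome arm 2R in the BDGP6 assembly. From GstE1 to GstE9 it spans 11.4 kb (18398393 to 18409835) and holds 9 epsilon genes, all on the plus strand, of which 8 are members and the other is GstE4. Each of the 8 members in the array is annotated as 1 uninterrupted exonic block with coding and untranslated bases. The spacing is close, with 162 bases between GstE6 and GstE7, 145 between GstE7 and GstE8, and 92 between GstE8 and GstE9. GstE11 (18503608 to 18505025, plus strand, 3 exonic blocks) starts 93.8 kb beyond GstE9. GstE12 (24766718 to 24768172, minus strand, 2 exonic blocks) lies 6357 kb beyond GstE9 on the same arm. The genes are paralogues and no counting rule is stated, so the division of reads between members of similar sequence is uncertain.

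Comparing both Hlc dsRNAs with control, most of these transcripts were lower after Hlc dsRNA, by amounts that ranged from under 2-fold to 20.5-fold. In edgeR's quasi-likelihood test with Benjamini-Hochberg adjustment over all features, 8 of the 9 tested members fell and 1 rose at an adjusted p under 0.05. The background was large, since 32.6% of all features were called lower and 32.2% higher. A fall of more than 2-fold was called for 6 of the 9, against 13.2% of all features. For 8 of the 9 all 4 Hlc dsRNA libraries lay below both controls, as they did for 35.4% of all features. The median log2 fold change was -2.96 over the 9 members and 0.04 over all features. Fewer cells of a type and less RNA per cell cannot be told apart in bulk RNA.

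GstE9, the last gene of the array, was the most abundant member in the controls. Its level was 54.7 and 57.2 CPM in the dsRNA 2 libraries, 56.6 and 54.0 CPM in the dsRNA 3 libraries, and 1173 and 1106 CPM in the controls. The 4 Hlc dsRNA libraries lay close to one another and far below both controls. This 20.5-fold fall corresponds to a log2 fold change of -4.36 (SE 0.05, adjusted p 5.20e-09). The SE is the absolute log2 fold change divided by the root of the test's F value, a scale implied by the test. Taken singly, dsRNA 2 gave -4.35 (SE 0.07) and dsRNA 3 gave -4.37 (SE 0.07).

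GstE8 lies directly before it. It had 27.7 and 30.9 CPM with dsRNA 2, 26.7 and 20.4 CPM with dsRNA 3, and 264 and 248 CPM in the controls. All 4 Hlc dsRNA libraries were below both controls, and dsRNA 3 replicate 2 was the lowest. The fall was 9.77-fold (log2 fold change -3.29, SE 0.10, adjusted p 3.00e-07).

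GstE7 had 13.8 and 12.0 CPM with dsRNA 2, 11.8 and 10.3 CPM with dsRNA 3, and 95.2 and 90.5 CPM in the controls. Again the groups did not overlap, and the replicates of each group were close. It fell 7.79-fold (log2 fold change -2.96, SE 0.08, adjusted p 2.03e-07).

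GstE6 was the second most abundant member in the controls and fell less. Its level was 175 and 181 CPM with dsRNA 2, 119 and 96.3 CPM with dsRNA 3, and 442 and 431 CPM in the controls. The 3 groups were separate from one another, with the dsRNA 3 libraries lowest. With both dsRNAs the fall was 3.16-fold (log2 fold change -1.66, SE 0.08, adjusted p 2.03e-06).

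GstE11, outside the array, fell by an amount between those of GstE8 and GstE9. It had 10.7 and 10.4 CPM with dsRNA 2, 10.1 and 10.4 CPM with dsRNA 3, and 141 and 128 CPM in the controls. The dsRNA groups overlapped each other, and both lay below the controls. The fall was 12.9-fold (log2 fold change -3.69, SE 0.06, adjusted p 2.46e-08).

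**Figure D1:**
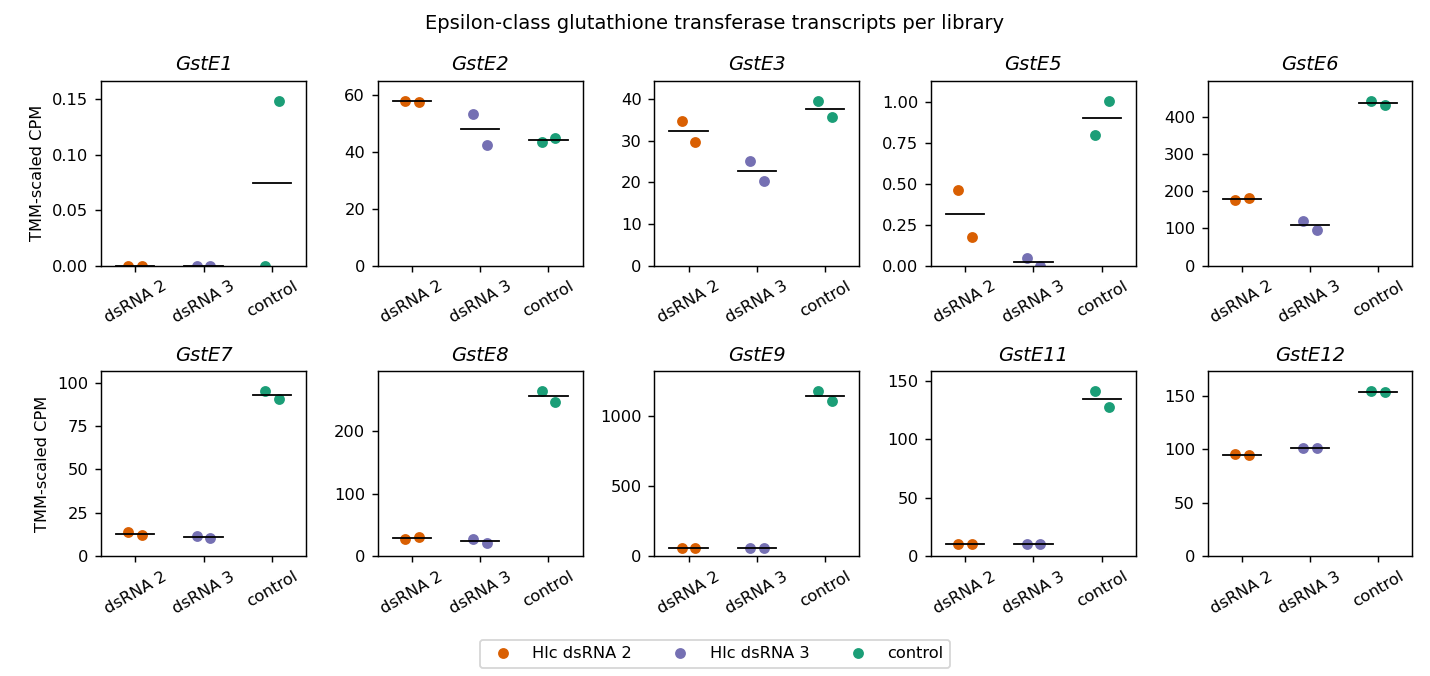
TMM-scaled CPM (vertical axes, linear, 1 scale per gene) of each of the 10 genes in the Hlc dsRNA 2, Hlc dsRNA 3 and control groups. Points are the 2 libraries of a group and bars their mean. In GstE9 the 4 Hlc dsRNA libraries sit between 54.0 and 57.2 CPM and the controls at 1173 and 1106 CPM, whereas in GstE2 the Hlc dsRNA 3 libraries straddle the controls.

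GstE12, the member farthest from the array, changed by less than 2-fold. It stood at 95.4 and 94.9 CPM with dsRNA 2, 102 and 101 CPM with dsRNA 3, and 155 and 154 CPM in the controls. Replicates were nearly equal, and the small fall was called (log2 fold change -0.65, SE 0.04, adjusted p 5.55e-06). Its exons share 2.40% of their bases with CG3894 on the other strand. When counts were scaled by library size alone in place of TMM, the log2 fold change was -0.07 and not called (adjusted p 0.186).

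GstE3 and GstE2 lie near the start of the array, and both changed by less than 2-fold. GstE3 had 34.8 and 29.8 CPM with dsRNA 2, 25.1 and 20.4 CPM with dsRNA 3, and 39.6 and 35.7 CPM in the controls. Its libraries with Hlc dsRNA were all below the controls, by a narrow margin in dsRNA 2 replicate 1. It fell 1.39-fold (log2 fold change -0.47, SE 0.11, adjusted p 0.00753). This call ended without control replicate 1 (-0.40, adjusted p 0.063), and the direction turned under library size alone (0.11, adjusted p 0.397).

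GstE2 was the member that rose. A gene of the same name in the mosquito Anopheles gambiae codes for an enzyme known to break down DDT. GstE2 had 58.0 and 57.6 CPM with dsRNA 2, 53.4 and 42.6 CPM with dsRNA 3, and 43.5 and 45.0 CPM in the controls. The dsRNA 2 libraries were above both controls, and the dsRNA 3 libraries lay on either side of them. The log2 fold change of 0.25 (SE 0.09) passed narrowly in edgeR (adjusted p 0.0478), and limma-voom did not call it (adjusted p 0.0601). Without control replicate 1 its adjusted p was 0.189, without control replicate 2 0.121, and without either dsRNA 2 library 0.0903 or 0.0799. Scaled by library size alone it was 0.83 and called (adjusted p 0.000134).

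GstE5 and GstE1 were close to the limit of detection, where intervals and floors cover counting error alone. GstE5 had 38 and 11 counts with dsRNA 2, 3 and 0 with dsRNA 3, and 39 and 61 in the controls. Every Hlc dsRNA library was lower than both controls on the CPM scale, and the dsRNA 2 libraries differed more than 2-fold from each other. Per adjusted library size, the 4 Hlc dsRNA libraries together held 5.43 times fewer GstE5 counts than the controls (95% exact counting interval 3.85 to 7.75), and the dsRNA 3 libraries 49.8 times fewer (16.6 to 246). The fitted log2 fold change of -3.45 (SE 0.74, adjusted p 0.00495) averages both dsRNAs on the log scale. It was -5.24 without dsRNA 3 replicate 1 and -2.87 without dsRNA 3 replicate 2, and remained called in each case. GstE1 had 0 counts in all 4 Hlc dsRNA libraries, and 0 and 9 in the controls. A count of 0, read as fewer than 3 counts, allows up to 0.0307 to 0.0474 CPM in the Hlc dsRNA libraries and 0.0616 CPM in control replicate 1.

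The scaling matters for the small changes. The median of all features stood at 0.04 on the log2 scale with TMM, 0.19 when upper-quartile factors were used and 0.62 when library size alone was used. GstE5, GstE6, GstE7, GstE8, GstE9 and GstE11 were called lower under each of these 3 scalings and with the size factors of DESeq2, with GstE9 between -4.36 and -3.77. Under library size alone those 6 were the members called lower and GstE2 the member called higher, where 16.1% of all features were lower and 56.1% higher. The member median was then -2.38. A change of scaling moves all features nearly alike. That GstE3 at 0.11 and GstE12 at -0.07 lay below the median of 0.62 is therefore no separate evidence of a fall.

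In map order along the array, the log2 fold changes were 0.25 for GstE2, -0.47 for GstE3, -3.45 for the thinly counted GstE5, -1.66 for GstE6, -2.96 for GstE7, -3.29 for GstE8 and -4.36 for GstE9. Leaving GstE5 aside, each log2 fold change was lower than the one before it. The order is a description of genes that share libraries and locus, and no test was made of it. Beyond GstE9 lies imd, the gene for the adaptor of the Imd immune pathway, which runs on the opposite strand and shares 5.10% of the exonic bases of GstE9. Without a stated strand setting, reads from shared bases cannot be told apart, here or between GstE12 and CG3894.

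Of 23 annotated features within 10 kb of a member, 11 could be tested. Of these 4 were lower, 4 higher and 3 not called, beside 32.6% of all features lower and 32.2% higher. Beside the array imd fell (53.2 ± 3.37 CPM with Hlc dsRNA, n = 4, and 115 ± 3.36 CPM in the controls, n = 2, SD; log2 fold change -1.12, SE 0.05, adjusted p 2.22e-06). The next gene, Dp1, which codes for an RNA-binding protein with KH domains, rose (560 ± 38.6 CPM with Hlc dsRNA and 347 ± 1.40 CPM in the controls; 0.69, SE 0.04, adjusted p 9.72e-06). On the other side, the immune peptide genes BomS3, BomT2, BomS5 and BomS6 had 0 counts in all 6 libraries and Idgf5 had 5 counts in total. Next to GstE11, the transposable element copy FBti0018965 rose (1.01, SE 0.11), and CG30116, with 89 counts in total, was not called. Around GstE12, the neighbours Eps-15 (-0.65, SE 0.04), CG3894 (-1.01, SE 0.07) and Usp15-31 (-0.30, SE 0.08) fell, while CG12848 (0.59, SE 0.10) and the histone methyltransferase gene egg (0.42, SE 0.05) rose. CG3880 (-1.05, adjusted p 0.112) and FBti0018918 (1.46, adjusted p 0.102) were not called. When library size alone was used, Usp15-31 turned to 0.29 and was called higher (adjusted p 0.0239), and Eps-15 was not called (adjusted p 0.194). FBti0018918 was then called higher (2.05, adjusted p 0.0325), where 56.1% of all features were higher.

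**Figure D2:**
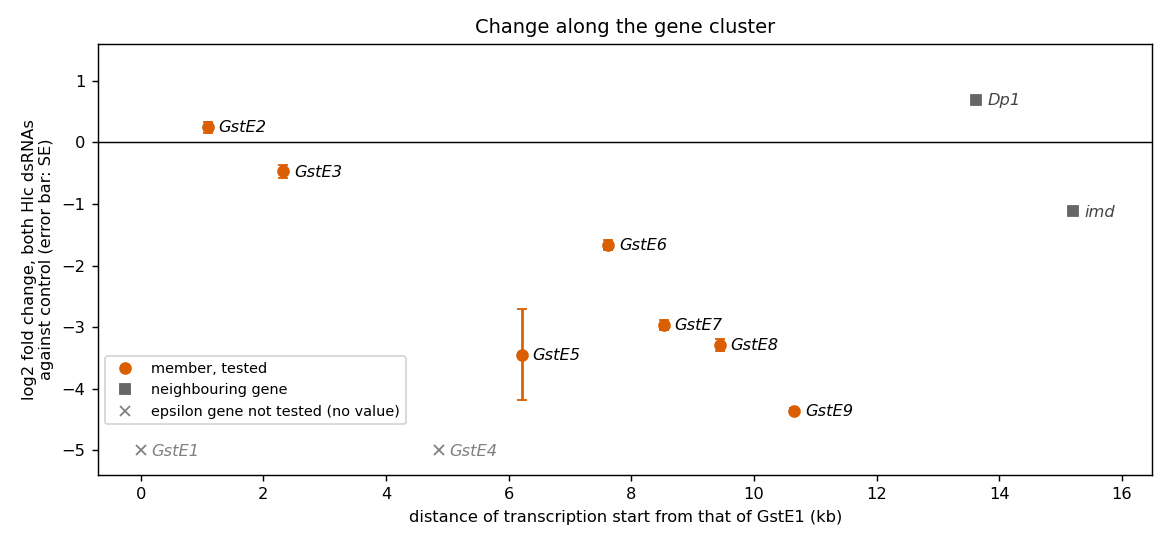
Log2 fold change of both Hlc dsRNAs against control (vertical axis, error bars are SE) against the distance in kb between each gene's transcription start and that of GstE1 (horizontal axis). Circles are tested members, squares the neighbouring genes imd and Dp1, and crosses mark the places of GstE1 and GstE4, which have no value. The points descend from 0.25 at GstE2 to -4.36 at GstE9, with GstE5 below the run, and Dp1 stands at 0.69.

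Each dsRNA was also set against the controls singly, and these comparisons share their control libraries. With dsRNA 2, 6 members fell and 1 rose (background 30.3% lower and 30.4% higher). GstE3 (-0.22, adjusted p 0.184) and GstE5 (-1.49, adjusted p 0.147) were not called, and GstE5 was at -2.37 without dsRNA 2 replicate 1 and -0.96 without dsRNA 2 replicate 2. The rise of GstE2 with dsRNA 2 (0.38, adjusted p 0.0164) was lost without either control and without either dsRNA 2 library (adjusted p 0.0531 to 0.0773). With dsRNA 3, 8 members fell (background 31.6%). GstE5 was at -5.42 with dsRNA 3, a value that was -4.25 without dsRNA 3 replicate 2 and -9.0 without dsRNA 3 replicate 1, where the remaining library had 0 counts and the fitted value is no bound. GstE2 was at 0.11 there (adjusted p 0.380), which became 0.27 and called without dsRNA 3 replicate 2 (adjusted p 0.0229) and -0.05 without dsRNA 3 replicate 1. GstE8 was at -3.13 (SE 0.13) with dsRNA 2 and -3.45 (SE 0.13) with dsRNA 3. The values of GstE7 were -2.85 (SE 0.11) with dsRNA 2 and -3.07 (SE 0.11) with dsRNA 3, those of GstE11 were -3.67 and -3.71 (SE 0.08 each), and those of GstE12 were -0.70 and -0.61 (SE 0.04 each).

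**Figure D3:**
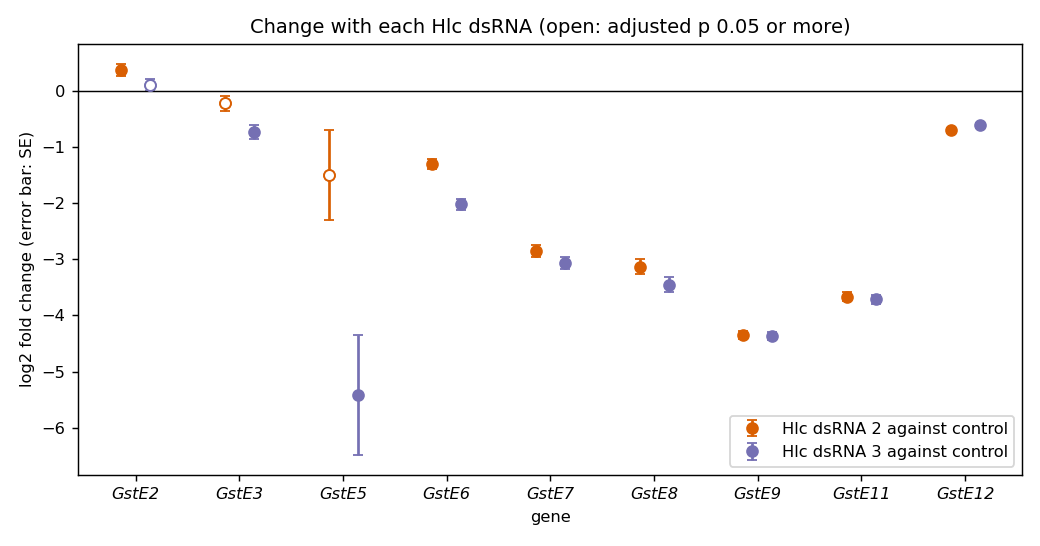
Log2 fold change (vertical axis, error bars are SE) of the 9 tested members with Hlc dsRNA 2 and with Hlc dsRNA 3, each against control. Open circles mark adjusted p of 0.05 or more, which are GstE3 and GstE5 with dsRNA 2 and GstE2 with dsRNA 3. The values for GstE9 (-4.35 and -4.37) coincide, and those for GstE6 (-1.30 and -2.02) and GstE5 (-1.49 and -5.42) lie apart.

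When dsRNA 3 was set against dsRNA 2, 0 of 9 members were called by edgeR, where 0.0797% of all features were called. At an unadjusted p under 0.05, 5 members were lower with dsRNA 3, as were 11.3% of all features. DESeq2 called 2 members and 10.8% of all features, and limma-voom 1 member and 2.9% of all features. The member nearest the threshold was GstE6, at 119 and 96.3 CPM with dsRNA 3 and 175 and 181 CPM with dsRNA 2. Its log2 difference was -0.72 (SE 0.09, 95% interval -0.95 to -0.50, adjusted p 0.0586). DESeq2 called it (adjusted p 1.18e-10), as did limma-voom (0.0329) and edgeR without a filter (0.0458), with a filter of 1 CPM in 4 libraries (0.0252) and without dsRNA 3 replicate 1 (0.0184). GstE3 differed by -0.51 (SE 0.13, adjusted p 0.112), with both dsRNA 3 libraries below both dsRNA 2 libraries, and DESeq2 called it as well (adjusted p 0.00751). GstE5 had 3 counts with dsRNA 3 and 49 with dsRNA 2, a log2 difference of -3.93 that was not called (SE 1.08, adjusted p 0.119). It was -7.51 without dsRNA 3 replicate 1, -2.76 without dsRNA 3 replicate 2, and not called in either case. For GstE9 the difference was -0.02 with a 95% interval of -0.16 to 0.12, and for GstE11 -0.05 with an interval of -0.23 to 0.13. Those intervals are narrow beside the falls of both genes.

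The make-up of the epsilon transcripts was different after Hlc dsRNA. Levels of different genes are compared per kilobase of exon. Summed over the 10 genes, the level was 537 and 540 CPM per kilobase with dsRNA 2, 446 and 387 with dsRNA 3, and 2800 and 2662 in the controls. The sum with Hlc dsRNA was 5.72 times lower than in the controls. On CPM of library size alone, without division by length, it was 3.60 times lower. With 4 libraries against 2, the exact two-sided permutation test, which doubles the smaller tail, could not go below p = 0.133. That was the value here.

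A share of the sum does not depend on library scaling. GstE9 made up 12.9% and 13.4% of the sum with dsRNA 2, 16.1% and 17.7% with dsRNA 3, and 53.2% and 52.7% in the controls. For GstE6 the shares were 43.5% and 44.6% with dsRNA 2, 35.6% and 33.2% with dsRNA 3, and 21.0% and 21.6% in the controls. GstE9 was thus the largest part in both controls, and GstE6 in each Hlc dsRNA library. GstE2 supplied 12.5 ± 0.65% with Hlc dsRNA (SD, n = 4) and 1.82 ± 0.11% in the controls (SD, n = 2). GstE3 supplied 7.58 ± 0.69% with Hlc dsRNA and 1.82 ± 0.07% in the controls, and GstE12 15.1 ± 2.97% and 4.04 ± 0.13%. For each of these 5 genes the Hlc dsRNA and control libraries did not overlap, with the smallest p the exact test allows (0.133). The same held for GstE7, GstE8 and GstE11, whose shares were lower with Hlc dsRNA. The shares are parts of a common sum, so a share can rise while the gene's own level falls, as for GstE3, GstE6 and GstE12.

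**Figure D4:**
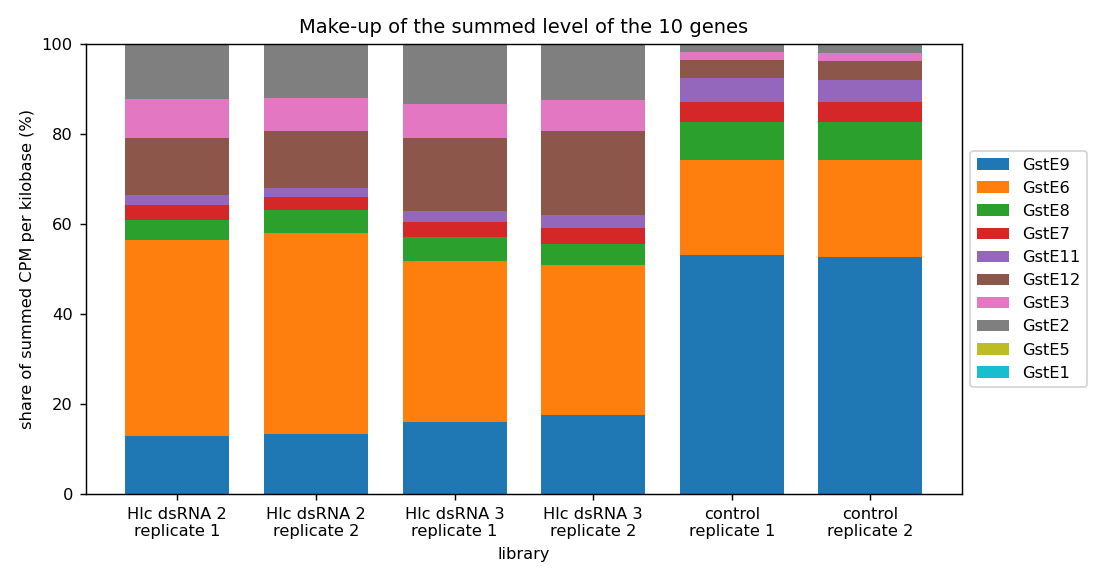
Share (%) of each gene in the summed CPM per kilobase of the 10 genes, 1 bar per library, in the order dsRNA 2, dsRNA 3, control. GstE9 takes 12.9% to 17.7% of the bar in the Hlc dsRNA libraries and 53.2% and 52.7% in the controls, while GstE6 is the largest part in each Hlc dsRNA library.

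The order of levels also differed between the groups. With dsRNA 2, GstE6 led at 237 ± 5.15 CPM per kilobase and GstE9 followed at 71.0 ± 2.21, GstE12 at 68.1 ± 0.22 and GstE2 at 64.9 ± 0.38 (SD, n = 2). With dsRNA 3, GstE6 led at 144 ± 21.7 ahead of GstE12 at 72.5 ± 0.28, GstE9 at 70.2 ± 2.32 and GstE2 at 53.9 ± 8.52 (SD, n = 2). GstE9 and GstE12 thus changed places between the dsRNAs, at levels 1.04 and 1.03 times apart. So close a ranking rests on the exonic lengths used, for GstE12 1398 bases pooled over 4 annotated transcripts. GstE3, GstE8, GstE7, GstE11, GstE5 and GstE1 followed in that order in both Hlc dsRNA groups. The replicates of neighbours in the order did not overlap in either Hlc dsRNA group, except GstE5 and GstE1 with dsRNA 3. In the controls the order was GstE9 (1446 ± 59.8), GstE6 (582 ± 10.6), GstE8 (228 ± 10.4), GstE11 (142 ± 10.2), GstE7 (121 ± 4.33), GstE12 (110 ± 0.32), GstE3 (49.9 ± 3.71), GstE2 (49.8 ± 1.20), GstE5 (1.23 ± 0.20) and GstE1 (0.09 ± 0.13, SD, n = 2 each). GstE3 and GstE2 overlapped there, and the other neighbours in that order did not.

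Among the 4 epsilon genes outside the set, GstE13 fell slightly (64.2 ± 2.62 CPM with Hlc dsRNA, n = 4, and 80.9 ± 5.23 CPM in the controls, n = 2, SD; log2 fold change -0.33, SE 0.06, adjusted p 0.00248), and turned to 0.25 under library size alone (adjusted p 0.00567). GstE14, known for its part in ecdysteroid synthesis, was not called (1.18, SE 0.59, adjusted p 0.118). Under library size alone it was called higher (1.76, adjusted p 0.0316), on 167 counts with Hlc dsRNA and 25 in the controls. GstE4 averaged 0.117 CPM with Hlc dsRNA (39 counts in 4 libraries) and 0.134 CPM in the controls (15 counts in 2 libraries) and was not tested, and GstE10 had 0 counts in all 6 libraries.

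Of the 28 listed glutathione transferases outside the set, 25 were tested. Of these, 13 fell, 2 rose and 10 were not called, beside 32.6% of all features lower and 32.2% higher. Their median log2 fold change was -0.33. Their sum was 1049 to 1206 CPM with Hlc dsRNA and 1663 to 1685 CPM in the controls, beside 355 to 474 and 2239 to 2355 CPM for the 10 members. Under library size alone the split of the 25 was 6 lower and 11 higher (median 0.25), beside 16.1% of all features lower and 56.1% higher. No test of the members against the other classes was made.

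The delta class is the other large insect class. Of its 11 members 9 fell and 2 were not called (median -1.48), beside 32.6% of all features lower. The split was 6 lower and 1 higher under library size alone (median -0.90), beside 16.1% of all features lower and 56.1% higher. GstD2 stood at 0.24 ± 0.05 CPM with Hlc dsRNA (SD, n = 4) and 7.55 ± 0.62 CPM in the controls (SD, n = 2), a log2 fold change of -4.98 (SE 0.21). GstD3 was at 87.2 ± 6.50 CPM with Hlc dsRNA and 244 ± 1.33 CPM in the controls (-1.49, SE 0.06), and GstD5 at 62.8 ± 12.9 and 173 ± 8.15 CPM (-1.48, SE 0.06). GstD1 was at 352 ± 31.1 CPM with Hlc dsRNA and 423 ± 6.07 CPM in the controls (-0.27, SE 0.05), and turned to 0.31 under library size alone.

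The smaller classes are likewise set beside 32.6% of all features lower and 32.2% higher. In the theta class 3 of 4 fell and 1 was not called. GstT1 was at -0.58 (SE 0.04), GstT2 at -0.72 (SE 0.10) and GstT4 at -0.14 (SE 0.05). Under library size alone the class had 0 lower and 2 higher. GstT1 and GstT2 were not called there and GstT4 turned to 0.44. The omega class had 1 of 4 higher, GstO2 at 0.15 (SE 0.05), and 3 not called, among them GstO1 (0.42, adjusted p 0.0534) and GstO3 (-0.08, adjusted p 0.313). GstZ1 of the zeta class rose (0.56, SE 0.13) and GstS1 of the sigma class was at -0.20 (adjusted p 0.462). The microsomal enzyme genes Mgstl (-0.11, adjusted p 0.178) and CG33178 (0.67, adjusted p 0.0822) were not called. When library size alone was used, GstO1 (adjusted p 0.000956), GstO2 (log2 fold change 0.73) and GstO3 (which turned to 0.51) were called higher, as were Mgstl (which turned to 0.47) and CG33178 (1.24). Under that scaling 56.1% of all features were higher and 16.1% lower.

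**Figure D5:**
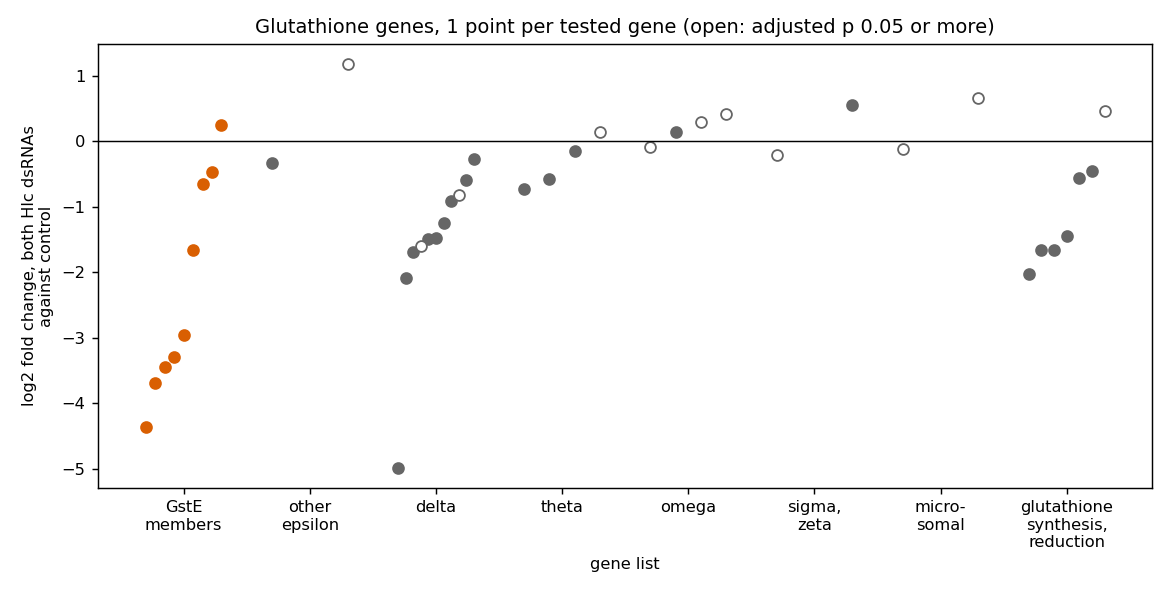
Log2 fold change of both Hlc dsRNAs against control (vertical axis) for each tested gene of the glutathione transferase classes and of glutathione synthesis and reduction (horizontal axis). Filled points passed an adjusted p of 0.05 and open points did not. The GstE members run from -4.36 to 0.25, the delta genes from -4.98 to -0.27, and the omega genes from -0.08 to 0.42.

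Of 7 tested genes of glutathione synthesis and reduction, 6 fell and 1 was not called, beside 32.6% of all features lower. Their median was -1.45, against 0.04 for all features. Under library size alone 4 of the 7 were lower (median -0.87), beside 16.1% of all features. Gclm and Gclc, which code for the modifier and catalytic subunits of the enzyme that starts glutathione synthesis, were at 106 ± 8.26 and 52.2 ± 1.82 CPM with Hlc dsRNA, against 430 ± 17.8 and 164 ± 0.87 CPM in the controls (log2 fold changes -2.03 and -1.65, SE 0.05 and 0.04). PHGPx, a peroxidase gene, was at -1.66 (SE 0.04). Keap1, which codes for the inhibitor of the stress factor made from cnc, fell to 12.1 ± 0.93 CPM with Hlc dsRNA, against 95.1 ± 2.89 CPM in the controls (SD, n = 4 and 2; -2.97, SE 0.08). The cnc transcript was at -1.11 (SE 0.07), and that of its partner maf-S at 0.09 (adjusted p 0.370). Under library size alone maf-S was at 0.67 and called higher (adjusted p 0.00027). Among 4 tested export pump genes 3 fell and 1 was not called, beside the 32.6% of all features lower. Mrp4 was at -1.28 (SE 0.04), Mdr49 at -5.58 (SE 0.47), on 62 counts with Hlc dsRNA and 804 in the controls, and MRP at -0.23 (SE 0.05), which turned to 0.36 under library size alone.

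Of 49 tested cytochrome P450 genes 21 fell and 9 rose, with a median of -0.60, beside 32.6% of all features lower and 32.2% higher. Under library size alone the split was 19 lower and 16 higher, beside 16.1% of all features lower and 56.1% higher. Cyp6a8 fell to 1.89 CPM with Hlc dsRNA, against 62.4 CPM in the controls (-5.04, SE 0.11), and Cyp6a20 (-4.01, SE 0.10) and Cyp4e2 (-2.63, SE 0.07) fell too. Of 14 tested UDP-glycosyltransferase genes 5 fell and 3 rose, with a median of 0.02, beside the same 32.6% and 32.2% of all features. With library size alone 4 were lower and 5 higher (median 0.58), beside 16.1% and 56.1% of all features. Ugt302C1 (-2.21, SE 0.06) and Ugt35C1 (-2.66, SE 0.19) fell and Ugt317A1 (0.88, SE 0.06) rose.

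The tested features nearest to GstE9 in pattern were sought by Euclidean distance between centred log2 CPM over the 6 libraries, computed with a prior count of 2. They were RabX1, a Rab family GTPase gene (distance 0.16), the heat shock gene Hsp68 (0.20), tRNA:Ala-AGC-2-6 (0.20), pirk, whose product inhibits the Imd pathway (0.20), and MFS3 (0.29). Among the members themselves GstE11 (0.78), GstE8 (1.29) and GstE7 (1.64) were closest to GstE9 and GstE2 (5.32) farthest. RabX1 stood at 37.6 ± 1.93 CPM with Hlc dsRNA (SD, n = 4) and 771 ± 30.4 CPM in the controls (SD, n = 2), with the same rounded log2 fold change as GstE9, -4.36 (SE 0.06). The tRNA gene had 0 counts with Hlc dsRNA and 66 in the controls, and was at least 62.2-fold lower with the Hlc dsRNA group set at 3 counts in all. Its log2 CPM at 0 counts is set by the prior count, so its small distance is no measure of likeness to GstE9. For the sum of the 10 members the nearest were Cyp6a17 (0.15), PGRP-SA (0.17), CG6357 (0.17), CG6231 (0.18) and CG1648 (0.20), with log2 fold changes between -2.54 and -2.31. PGRP-SA, the gene for a sensor of the Toll pathway, was at 374 ± 50.7 CPM with Hlc dsRNA and 1843 ± 65.9 CPM in the controls. The distances rank features over the same 6 libraries and carry no p.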

How the data were processed

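Poly(A) RNA was sequenced from 6 S2 libraries. The authors deposited 1 table of raw counts, whole numbers for each feature. The submitters' processing notes list Trimmomatic 0.36, TopHat2 2.1.0, StringTie 2.1.7 and BDGP6, giving no role for any. How reads were counted, with or without strand and multiple hits, is not given in the sources used here. Of the feature identifiers 99.7% were found in Ensembl's annotation of BDGP6.54, release 115, which gave positions (1-based), exonic lengths and overlaps.

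Counts were filtered with filterByExpr, scaled with TMM and tested with edgeR 4.0.16 (quasi-likelihood F test, R 4.3.3) in 1 fit of 6 libraries with a term per group. P-values were adjusted by Benjamini-Hochberg over 11293 features and called under 0.05. Scaling was varied (DESeq2's size factors, upper quartile, library size alone), as were the filter (none, or 1 CPM in at least 4 libraries), the tool (DESeq2 1.42.0, limma-voom with limma 3.58.1), a replicate block, each library left out, and the compared groups alone. The fit was also run on simulated data in which few features changed. That run cannot check the scaling where many features change. Chi-square per degree of freedom between replicates was 23.0 to 40.3, above sampling noise.

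Members and gene lists were chosen with earlier results of these data known. Named were all members, the other epsilon genes, Hlc, tested features within 10 kb, up to 3 genes per list with the smallest adjusted p, and the 5 features nearest in pattern. GstD1, He, Hml, Pxn, srp, NimC1, tj, PPO2, the Bom genes and Idgf5 were named after their values were seen.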

Additional observations from a re-analysis of the deposited data

How the results depend on the processing

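With both dsRNAs against control, 8 members were lower, and the number stayed within 1.5 times of that under each alternative run for it, which did not include the compared groups alone, since both dsRNAs and the controls are all 6 libraries. The number higher (1, GstE2) became 0 with limma-voom and 0 with the replicate block, and ran from 0 to 1 with single libraries left out. Under library size alone GstE3 turned to 0.11 (0.36 with dsRNA 2). The number higher then became 2 with dsRNA 2 and 1 with dsRNA 3, beside 6038 and 6080 of all 11293 features. With single libraries left out the number higher ran from 0 to 1 with dsRNA 2 and from 0 to 1 with dsRNA 3, where GstE2 ran from -0.05 to 0.27. Between the dsRNAs the number lower (0) became 1 without a filter, 1 with 1 CPM in at least 4 libraries, 2 with DESeq2 and 1 with limma-voom, and ran from 0 to 1 with single libraries left out, where GstE9 ran from -0.05 to 0.02. The share of GstE5, Hlc dsRNA minus control, ran from -0.026 to 0.0132 percentage points. No label says that replicate numbers pair the libraries, and same-numbered libraries did not deviate together (correlations -0.045, 0.003 and -0.032). The replicate block gave GstE2 an adjusted p of 0.0569 with both dsRNAs and GstE6 one of 0.127 between the dsRNAs. The cause of these changes was not tested. The small groups of 2 libraries limit every interval, and depth limits GstE1, GstE4 and GstE5.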
